A study of Mus musculus with 2 samples.

Results

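The 8 genes described here carry iron into cells, store it, release it from store, export it and sense it: Fth1 and Ftl1 (ferritin heavy and light chain), Ncoa4, Tfrc, Slc11a2, Slc11a1, Slc40a1 and Ireb2. They were chosen by symbol, and each matched 1 of the 33696 features counted in the deposited tables. The data are droplet-based 3′ single-cell counts of unique molecular identifiers (UMIs, each standing for 1 captured RNA molecule) from full-thickness dorsal skin wounds of 10 mm in wild type male C57BL/6 mice, dissociated at day 6 after wounding. There was 1 library of mice aged 2 months (young) and 1 of mice aged 24 months (aged). The title of the series concerns senescence and slow wound repair in ageing.

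Each library pooled mice, and red cells were lysed before loading, per the labels. With 1 library per age there is no replicate check and no test: a difference is between these 2 libraries, and age, pool and preparation cannot be told apart. Intervals are 95% and cover counting error only. After filters on cells, 4661 young and 4210 aged cells were kept, with medians of 15566 and 13777 UMIs per cell. Cells were assigned to classes by the score of marker lists that hold none of the 8 genes. The macrophage/monocyte class held 708 young and 1056 aged cells, the neutrophil class 1362 and 919, the fibroblast class 1562 and 1460, and 499 and 599 cells were left ungated. T/NK cells numbered 316 and 33, dendritic cells 23 and 49, endothelial cells 63 and 49. All 10 macrophage/monocyte markers and all 8 neutrophil markers had UMIs in the class they define, in both libraries. The gate used these same markers, so this is no check of the classes. All 10 macrophage/monocyte markers also had UMIs in neutrophils and in fibroblasts of both libraries.

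Ferritin is a hollow shell of heavy and light chains. The heavy chain oxidises iron on entry, and the light chain supports mineral formation inside. Transferrin-bound iron enters through the transferrin receptor (Tfrc), and Slc11a2 (DMT1) carries it out of the endosome. Slc11a1 (NRAMP1) moves metal out of phagosomes, Slc40a1 (ferroportin) is the known iron exporter, and Ncoa4 delivers ferritin to lysosomes for breakdown. Ireb2 encodes an iron regulatory protein that binds stem-loops, called iron-responsive elements, in messenger RNAs when iron is low. Bound in a 5′ UTR such an element blocks translation, and in a 3′ UTR it stabilises the transcript. Macrophages at wounds take up iron from red cells and debris, and neutrophils withhold iron from microbes.

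The sequences that tie these genes together are the stem-loops, so they are shown first. UTRs of 21901 protein-coding mouse genes (GENCODE M21, GRCm38) were searched on the transcript strand only for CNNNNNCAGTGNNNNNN with the 5 bases before the loop pairing with the 5 bases after it, G with T allowed. Sites were found in 4 of the 8 genes, against 0.731% of all genes searched. Each line gives 29 bases, 5′ to 3′, with the loop in capitals.
Fth1 5′ UTR, chr19:9982732-9982760, plus strand: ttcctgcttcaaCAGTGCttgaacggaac
Ftl1 5′ UTR, chr7:45459779-45459807, minus strand: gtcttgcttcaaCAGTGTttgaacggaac
Slc40a1 5′ UTR, chr1:45925465-45925493, minus strand: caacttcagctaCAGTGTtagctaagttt
Tfrc 3′ UTR, chr16:32631219-32631247, plus strand: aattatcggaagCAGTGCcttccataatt
Tfrc 3′ UTR, chr16:32631598-32631626, plus strand: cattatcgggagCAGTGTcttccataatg
Tfrc 3′ UTR, chr16:32631663-32631691, plus strand: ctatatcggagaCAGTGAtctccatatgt
Tfrc 3′ UTR, chr16:32631710-32631738, plus strand: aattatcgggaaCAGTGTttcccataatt
The 3 genes with a site in the 5′ UTR are the storage and export genes, and all 4 sites of Tfrc lie in its last exon, exon 19. No match was found in Slc11a2, Slc11a1, Ireb2 or Ncoa4, which says only that no stretch met both the letters and the full 5-base pairing. A stem with a bulge or a mismatch would be missed, so these 4 genes are not read as lacking an element. A match is a description, and the UMI counts below measure RNA, not translation.

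**Figure D1:**
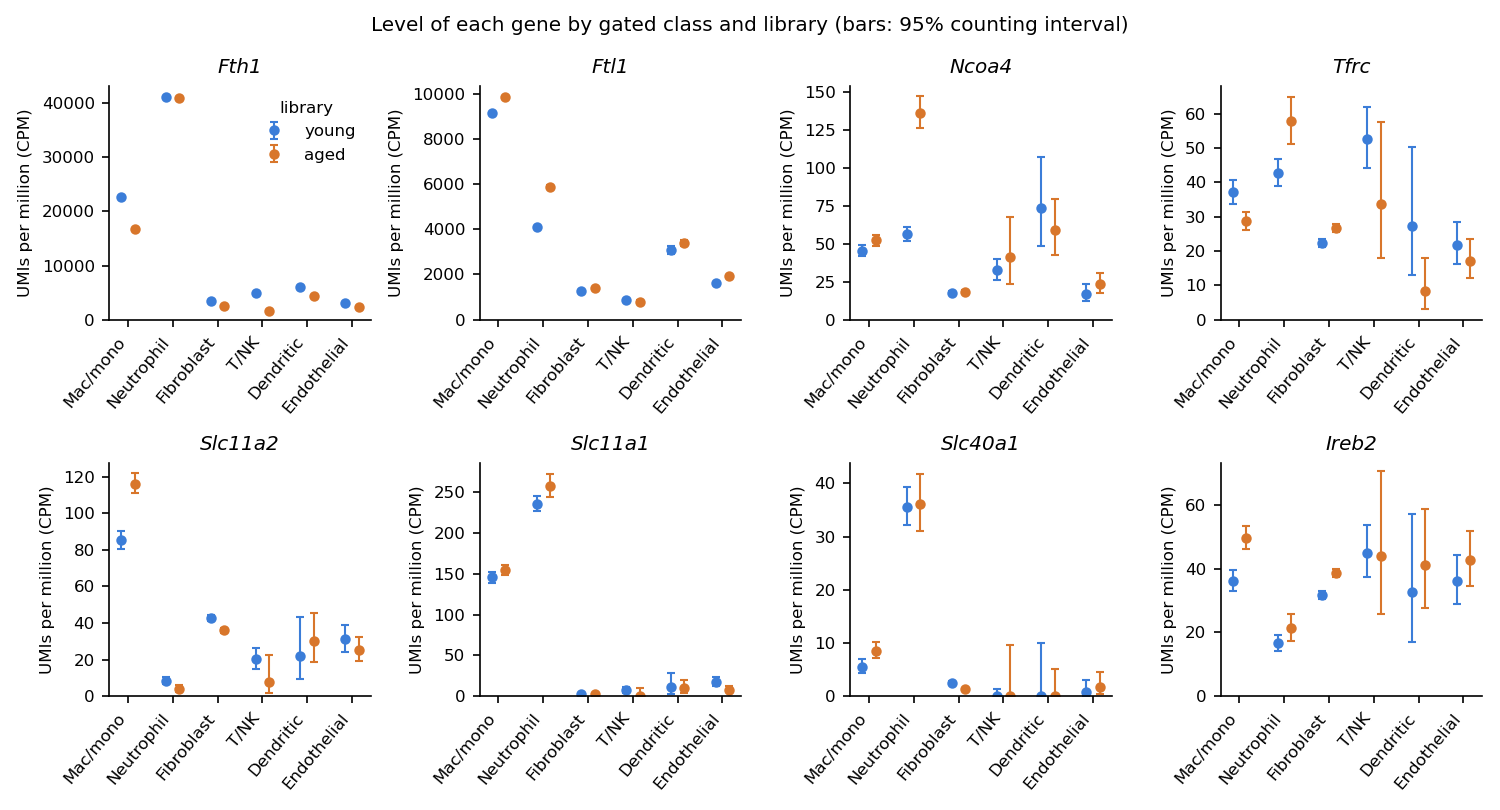
Level of each gene (y axis, CPM, linear) in 6 gated classes (x axis) in the young (blue) and aged (orange) library, with bars for the 95% counting interval. Fth1 and Slc40a1 stood highest in neutrophils, Ftl1 and Slc11a2 in macrophages/monocytes, and Ncoa4 in neutrophils stood at 56.1 in the young and 136 in the aged library.

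Fth1, the ferritin heavy chain, was highest in neutrophils and next highest in macrophages/monocytes. Levels here are CPM, the gene's UMIs scaled to the summed UMIs of the class, and are not divided by transcript length. In the young library Fth1 stood at 41099.5 CPM in neutrophils, 22748 in macrophages/monocytes, 5992 in dendritic cells, 4883 in T/NK cells, 3484 in fibroblasts and 3131 in endothelial cells. In the aged library it stood at 40899 CPM in neutrophils, 16817 in macrophages/monocytes, 4421 in dendritic cells, 2556 in fibroblasts, 2261 in endothelial cells and 1624 in T/NK cells. All neighbours in both orders were apart by more than their counting intervals. By UMIs Fth1 was the third most counted gene of young neutrophils and the second of aged ones, where it made up 4.11% and 4.09% of all UMIs.

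Between the libraries, Fth1 in neutrophils differed by less than its counting error at equal totals, with an aged/young ratio of 0.995 (0.990 to 1.0004), while the other scaling used, TMM (trimmed mean of M values), put it at 0.868. In macrophages/monocytes the ratio was 0.739 (0.735 to 0.743), or 0.641 and past 1.5-fold by TMM, and in fibroblasts 0.734 (0.729 to 0.738). Among the smaller classes the ratio was 0.738 in dendritic cells, 0.722 in endothelial cells and 0.333 in T/NK cells (33 aged cells). Markers of neutrophils moved with this difference. Their summed level was 243 CPM in young and 92.2 in aged fibroblasts, 697 and 478 in macrophages/monocytes, 661 and 40.8 in endothelial cells, and 1766 and 898 in dendritic cells, all 8 markers with UMIs in each of the first 3 classes. If such marker UMIs brought Fth1 along at the ratio it has inside neutrophils, they would bring 109 of the 3484 CPM in young fibroblasts and 64.9 of the 2556 in aged ones. With macrophage markers added, the figure in fibroblasts was 398 CPM (11.4% of the level) in the young and 286 (11.2%) in the aged library. In macrophages/monocytes neutrophil markers would bring 314 and 337 CPM. In endothelial cells markers of the other classes would bring 1599 of the 3131 CPM in the young library (51.1%) and 806 of the 2261 in the aged (35.7%). These shares were 29.7% and 36.8% in dendritic cells and 46.0% and 81.9% in T/NK cells. No direction is therefore read from Fth1 in endothelial, dendritic or T/NK cells.

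Over all cells Fth1 stood at 11250.5 CPM in young and 7330.4 in aged cells (0.652, 0.650 to 0.653). It was the sole 1 of the 8 genes past 1.5-fold over all cells, where 21.5% of all genes with at least 20 UMIs were past that fold (10.5% lower). Among genes with at least 1000 UMIs, as Fth1 has, that share was 8.46% (4.35% lower). The neutrophil share of UMIs was 9.84% in the young and 4.53% in the aged library, and classes rich in Fth1 weigh on the sum. With the young library's class shares in both, the ratio was 0.828, and with only the class shares differing it was 0.820. The mean of per-cell levels gave 0.840, which is inside 1.5-fold.

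Ftl1, the light chain, had another order of classes. It was highest in macrophages/monocytes, at 9142 CPM young and 9847 aged, followed by neutrophils (4105 and 5899), dendritic cells (3071 and 3410), endothelial cells (1602 and 1924), fibroblasts (1288 and 1412) and T/NK cells (861 and 788). The order was the same in both libraries, with no overlap of neighbouring intervals. Ftl1 was higher in the aged library in neutrophils (ratio 1.44, 1.42 to 1.46) and in fibroblasts (1.10, 1.09 to 1.11). By TMM these ratios were 1.25 and 1.03, so the fibroblast ratio lay close to 1 under that scaling. In macrophages/monocytes the ratio was 1.08 with equal totals and 0.933 when the libraries were scaled by TMM, so no direction is given there. TMM moved the log2 ratio of every gene by -0.21 in macrophages/monocytes, -0.20 in neutrophils, -0.11 over all cells and -0.09 in fibroblasts. Without it the median gene stood at a log2 ratio of 0.12 in macrophages/monocytes and in neutrophils and 0.03 in fibroblasts, so small ratios above 1 are read against that shift.

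The summed Fth1 UMIs per Ftl1 UMI do not depend on that scaling. The quotient was 2.49 in young and 1.71 in aged macrophages/monocytes, 10.0 and 6.93 in neutrophils, and 2.70 and 1.81 in fibroblasts. It was 5.67 and 2.06 in T/NK cells, 1.95 and 1.18 in endothelial cells, and 1.95 and 1.30 in dendritic cells. The aged quotient was the lower in each of the 3 large classes, and neutrophils held the highest quotient in both libraries. Markers of other classes would bring 99.4% of the young and 92.8% of the aged Ftl1 level of T/NK cells, and 34.3% and 23.9% of that of endothelial cells, so nothing is read from the quotient in these classes. The quotient compares classes and libraries, not the abundance of the chains, and counts of both genes are uncertain to the extent that reads were shared with near-identical ferritin copies: Ftl1-ps1 had 2889 UMIs in the young library and 2833 in the aged.

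**Figure D2:**
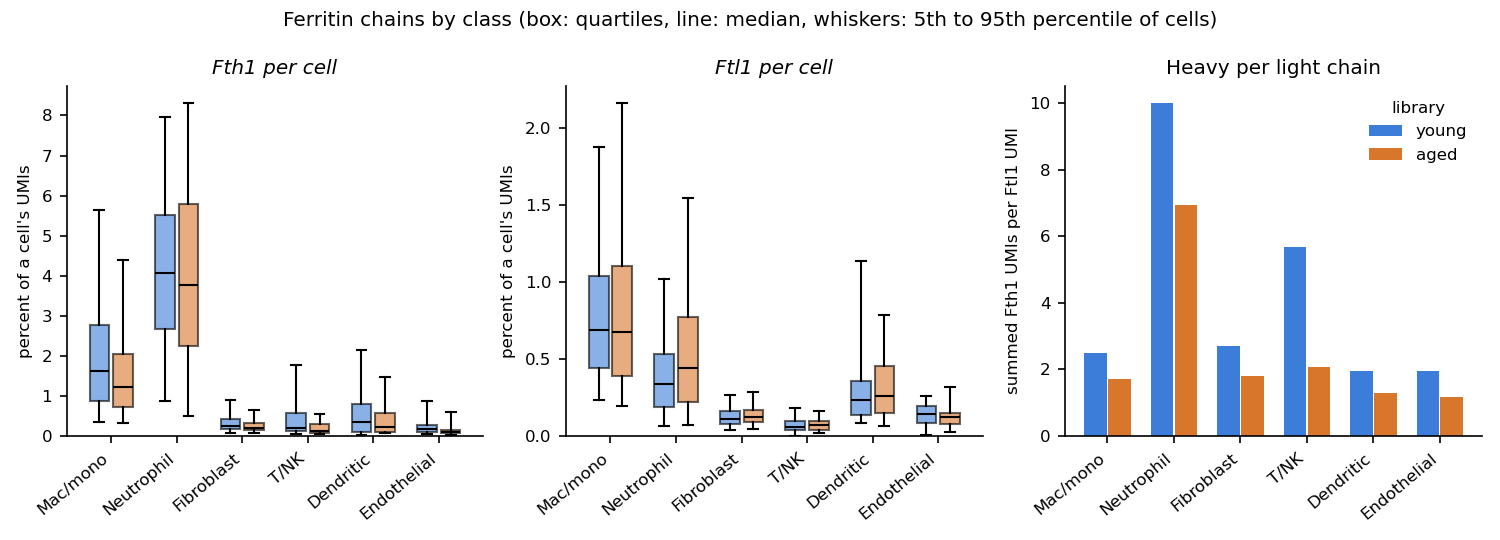
Percent of a cell's UMIs from Fth1 (left) and Ftl1 (middle) in 6 classes (x axis) of the young (blue) and aged (orange) library, boxes giving quartiles and whiskers the 5th and 95th percentile of cells, and summed Fth1 UMIs per Ftl1 UMI (right, bars). The quotient on the right is 10.0 in young and 6.93 in aged neutrophils, the highest class in both, while the boxes of the 2 libraries overlap.

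Cells of 1 class spread widely. The median young macrophage/monocyte gave 1.62% of its UMIs to Fth1 (5th to 95th percentile 0.356% to 5.64%), and the median aged one 1.22% (0.307% to 4.38%). In neutrophils the medians were 4.06% and 3.77%, with 5th percentiles of 0.880% and 0.490%. The ranges of cells overlap between the libraries in each of the 3 large classes. Cells that shared a library are not replicates, so no test is given. Fth1 outnumbered Ftl1 in 98.8% of young and 96.6% of aged neutrophils, in 86.3% and 79.1% of macrophages/monocytes, and in 83.5% and 76.1% of fibroblasts.

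Clusters, built without any iron gene, showed where in a class Fth1 differed. Of 26 clusters, 14 of the 3 large classes held at least 20 cells in each library, and Fth1 was lower in the aged library in 11 of the 14. Among macrophages/monocytes the widest gap was in cluster 12, led by Arg1 (arginase, a known wound macrophage gene), at 36088 CPM young and 21332 aged (0.591). Cluster 2, led by Ms4a7, Pf4 and the C1q genes, stood at 22227 and 19708 (0.887), and cluster 1, led by Cbr2, Ccl8 and Folr2, at 11264 and 10132 (0.900). The Arg1 cluster thus held the highest Fth1 of these in both libraries and the Folr2 cluster the lowest.

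Fibroblast clusters also split. Cluster 8, led by Prl2c3, Il11 and Ereg, stood at 4672 CPM young and 2852 aged (0.611), and cluster 9, led by Igfbp2, Coch and Wif1, at 4007 and 2123 (0.530). The contractile cluster 18, led by Prss35 and with Acta2 and Tagln among its top genes, gave 2192 and 2265 (1.03), and cluster 4, led by Eln and Cxcl14, 3149 and 3051 (0.969). Neutrophil clusters went both ways: cluster 7, led by Il23a, Tnf and Ccl3, stood at 44107 and 52867 (1.199), and cluster 17, led by Ccdc126, Cass4 and Hcar2, at 55259 and 36758 (0.665). The level of Fth1 in all neutrophils thus sums clusters on both sides of 1.

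Ccl3 is known from activated neutrophils, but most neutrophils here had a Ccl3 UMI, so the split sets a small remainder apart from the class. With each cell thinned to 2000 UMIs, neutrophils with a Ccl3 UMI held Fth1 at 42822 CPM against 26452 in those without in the young library (ratio 1.62, 1.56 to 1.68; 1213 and 62 cells). In the aged library the levels were 41613 and 19241 (2.16, 2.04 to 2.30; 806 and 29 cells). Ftl1 was also higher in cells with Ccl3, by 1.34 (1.21 to 1.49) in the young and 1.97 (1.69 to 2.30) in the aged library. For the other 6 genes the counting interval of this ratio held 1 in both libraries, with only 62 and 29 cells on the side without Ccl3. What those cells are was not tested.

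Ncoa4, the receptor that hands ferritin to lysosomes, showed the widest difference between libraries of the 8 genes in a large class. In neutrophils it stood at 56.1 CPM in the young library (614 UMIs) and 136 in the aged (664 UMIs), a ratio of 2.43 (2.17 to 2.71). In macrophages/monocytes it stood at 45.3 and 52.1 CPM (1.15, 1.03 to 1.28; 0.996 by TMM), and in fibroblasts at 17.6 and 18.3 (1.04, 0.961 to 1.12; 0.978 by TMM). By TMM the neutrophil ratio was 2.12. Of the 8 genes, 1 was higher (Ncoa4) and 1 lower (Slc11a2, near background as given below) by 1.5-fold or more in neutrophils, where 33.2% of all genes were past that fold (22.5% higher, 10.7% lower). Among neutrophil genes with at least 1000 UMIs, as Ncoa4 has, 14.8% were higher by that fold.

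The difference in Ncoa4 did not rest on a few cells but was uneven over clusters. The 10 cells with the most UMIs held 10.3% of the young and 15.7% of the aged neutrophil UMIs. At 2000 UMIs per cell, 11.1% of young neutrophils (142 of 1275, exact interval 9.46% to 13.0%) and 17.2% of aged ones (144 of 835, 14.7% to 19.98%) had an Ncoa4 UMI, against 2.88% and 3.63% of fibroblasts. Without thinning, the neutrophil shares were 27.2% and 32.5%.

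By cluster, Ncoa4 was 53.0 CPM young and 107 aged in cluster 0, led by Cxcr2 and Retnlg (2.02, 1.47 to 2.79). It was 50.7 and 125 in cluster 10, led by Stfa2l1 and S100a9 (2.46, 2.02 to 2.99), and 143 and 237 in cluster 17 (1.66, 1.31 to 2.14). In the Tnf cluster 7, which held 46.9% of young and 29.3% of aged neutrophils, it was 61.0 and 75.2, and the interval of the ratio held 1 (1.23, 0.967 to 1.56). Cluster 17, where Ncoa4 was highest in both libraries, made up 8.08% of young and 30.4% of aged neutrophils. Outside neutrophils, Ncoa4 in the Folr2 macrophage cluster 1 stood at 53.5 and 85.5 CPM (1.60, 1.33 to 1.93).

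**Figure D3:**
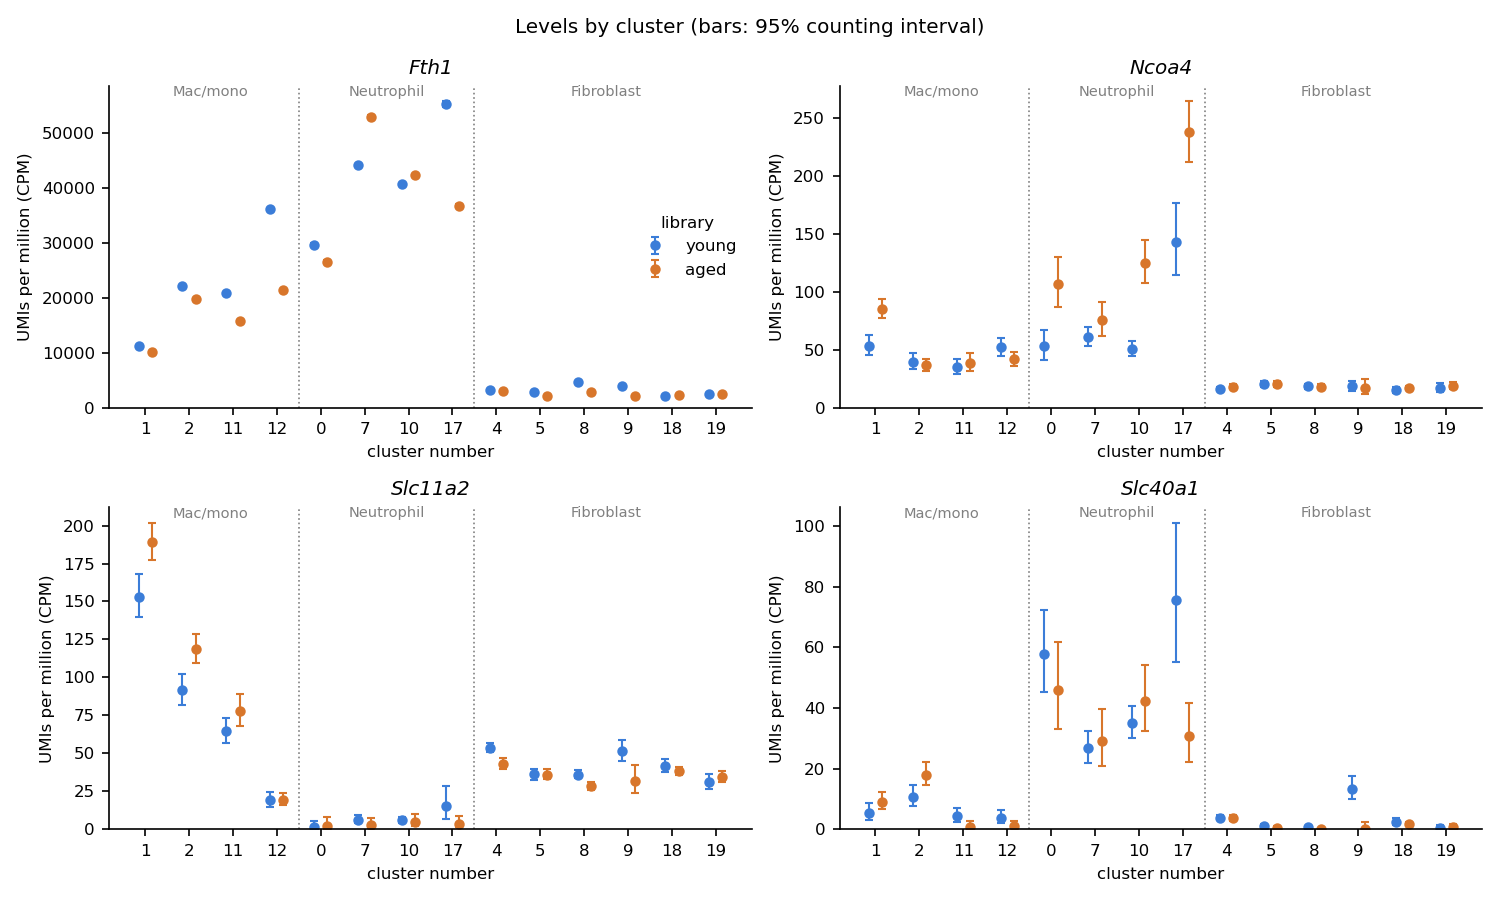
Fth1, Ncoa4, Slc11a2 and Slc40a1 (y axis, CPM, linear, bars for the 95% counting interval) in 14 clusters (x axis, cluster number) of the young (blue) and aged (orange) library, grouped by class with dotted lines between. Ncoa4 is highest in neutrophil cluster 17 (143 young, 237 aged), and Slc11a2 in macrophage cluster 1 (153 young, 189 aged).

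Tfrc, the transferrin receptor, was counted in all 6 classes. In the young library T/NK cells held 52.6 CPM, neutrophils 42.7, macrophages/monocytes 37.1, dendritic cells 27.3, fibroblasts 22.3 and endothelial cells 21.8, and each neighbouring pair of intervals overlapped. In the aged library neutrophils held 57.8 CPM, T/NK cells 33.7, macrophages/monocytes 28.6, fibroblasts 26.6, endothelial cells 17.1 and dendritic cells 8.23. The aged/young ratio was 1.36 (1.16 to 1.57) in neutrophils and 1.19 (1.12 to 1.28) in fibroblasts, both above 1 also by TMM (1.18 and 1.12), and 0.772 (0.676 to 0.880) in macrophages/monocytes.

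A few cells carried much of the macrophage value. Cluster 25, led by Atp6v0d2, Acp5 and Mmp9 (known from osteoclasts and other giant cells), held Tfrc at 232 CPM young and 165 aged. Its 13 young cells inside the macrophage/monocyte gate held 140 of that class's 476 Tfrc UMIs. Without the 10 cells with the most Tfrc UMIs in each library the ratio was 0.894, and with classes taken from clusters, which bring in more of cluster 25, it was 0.601.

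Tfrc is known to go with proliferation. Thinned young fibroblasts with a UMI of Mki67, Top2a, Cdk1 or Birc5 held 44.1 CPM of Tfrc against 16.8 in the rest (2.62, 1.13 to 5.401), and young macrophages/monocytes 59.5 against 23.1 (2.58, 1.12 to 5.47). In the aged library the intervals held 1: 1.68 (0.945 to 2.85) in fibroblasts and 1.19 (0.416 to 2.76) in macrophages/monocytes. Whether the ages differ in this was not tested.

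Slc11a2, the endosomal iron importer, was highest in macrophages/monocytes in both libraries, at 85.3 CPM young and 116 aged. Fibroblasts followed at 42.6 and 35.9, and neutrophils were lowest at 8.31 and 4.10. The aged/young ratio was 1.36 (1.26 to 1.47) in macrophages/monocytes and 0.844 (0.801 to 0.889) in fibroblasts, and TMM left these at 1.18 and 0.796. In neutrophils the ratio was 0.493 (0.288 to 0.807), past 1.5-fold on 91 and 20 UMIs. Macrophage markers inside the neutrophil class would by themselves bring 4.75 CPM of Slc11a2 in the young and 6.26 in the aged library. The aged value is therefore no higher than this background. In the young library 8.31 CPM (6.69 to 10.2) lies above it, but the background is 59.3% of that level with all other classes' markers counted, so the ratio is not read as a difference in neutrophils.

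Inside the macrophage/monocyte class, Slc11a2 was higher on the C1q side of a marker split than on the monocyte side. It was not high in every macrophage cluster, since the Arg1 cluster was the lowest of the 4 given here. Cells with the higher score for C1q genes and Mrc1 held 96.8 CPM young and 128 aged. The cells with the higher monocyte score (Ly6c2, Plac8, Chil3, Ccr2) held 43.6 and 48.1. Across clusters the level was 153 and 189 in the Folr2 cluster 1, 91.6 and 119 in the C1q cluster 2, 64.5 and 77.9 in cluster 11, led by MHC class II genes and Ly6c2, and 19.0 and 19.5 in the Arg1 cluster 12. Slc11a2 was thus lowest where Fth1 was highest among these 4 clusters, in both libraries, and its order was the same in both.

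Slc11a1, the phagosomal metal transporter, was highest in the phagocytes. C57BL/6 mice are known to carry a loss-of-function allele of this gene, which leaves its RNA countable. Neutrophils held 236 CPM young and 258 aged, macrophages/monocytes 146 and 155, and fibroblasts 2.85 and 2.11. Markers of macrophages and neutrophils would bring 2.48 CPM into young and 2.44 into aged fibroblasts, so the fibroblast level is read as background. Endothelial cells held 17.2 CPM (12.3 to 23.3; 41 UMIs) in the young and 7.90 (18 UMIs) in the aged library, of which markers of other classes would bring 55.3% and 92.3%. At 2000 UMIs per cell 32.1% of young and 34.5% of aged neutrophils had a UMI of the gene, and 24.0% and 24.1% of macrophages/monocytes, against 0.393% and 0.489% of fibroblasts. Median depths before thinning were 5664 and 4337 UMIs in neutrophils and 42089 and 49859 in fibroblasts.

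The aged/young ratio of Slc11a1 was 1.10 in neutrophils and 1.06 in macrophages/monocytes, and both fell below 1 by TMM (0.955 and 0.918), so neither has a direction here. Within neutrophils, cluster 0, led by Cxcr2 and Retnlg, stood at 271 CPM young and 493 aged (1.82, 1.58 to 2.10), while the Tnf cluster 7 stood at 208 and 164 (0.788, 0.677 to 0.915). Cluster 10 lay between, at 258 and 255.

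Slc40a1, the exporter, was highest in neutrophils in both libraries. Neutrophils held 35.6 CPM young (390 UMIs) and 36.1 aged (176 UMIs), with a ratio of 1.01 (0.843 to 1.21; 0.883 by TMM). Macrophages/monocytes held 5.45 and 8.50 CPM, fibroblasts 2.45 and 1.32, and dendritic and T/NK cells had no UMI in either library. At 2000 UMIs per cell 6.51% of young neutrophils (83 of 1275, exact interval 5.22% to 8.01%) and 5.75% of aged ones (48 of 835, 4.27% to 7.55%) had a UMI. The share was 0.327% and 0.628% in fibroblasts, and 0 of 312 young T/NK cells had one, which allows a share of up to 0.962%. The neutrophil share is above these.

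In neutrophils with a Slc40a1 UMI, S100a8 stood at 30452 CPM against 31025 in the rest of the young neutrophils, and 18135 against 19569 in the aged. C1qa, a macrophage gene, stood at 6.02 CPM (1 UMI) against 5.45 in the young and had no UMI in the 48 aged cells. Both genes are in the marker lists that set the classes, so these values are no independent check of what the cells are. Macrophage markers would bring 0.304 of the 35.6 CPM into young neutrophils and 0.458 of the 36.1 into aged ones. Hmox1 (haem oxygenase, which frees iron from haem) was higher in those cells, by 1.61 (1.21 to 2.11) in the young and 1.55 (1.03 to 2.26) in the aged library.

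In macrophages/monocytes, Slc40a1 was past 1.5-fold at 1.56 (1.16 to 2.12), the sole 1 of the 8 genes there, where 23.2% of all genes were past that fold (17.0% higher, 6.16% lower). It rested on few cells: 10 cells held 90% of the 70 young UMIs and 65.9% of the 132 aged ones. Without those 10 cells in each library the levels were 0.557 and 2.94 CPM. The ratio was 1.35 by TMM, 1.496 with classes from clusters and 1.43 without the top doublet scores, each inside 1.5-fold. At 2000 UMIs per cell 5 of 691 young (0.724%, 0.235% to 1.68%) and 11 of 1008 aged cells (1.09%, 0.546% to 1.94%) had a UMI, and these intervals overlap those of fibroblasts.

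All Slc40a1 UMIs of the split macrophage/monocyte cells lay on the C1q side (6.95 CPM young, 9.99 aged), and the monocyte side had none among 169 young and 181 aged cells. The thinned macrophages/monocytes with a Slc40a1 UMI were rich in the ferritin light chain. Ftl1 stood at 23800 CPM in the 5 young cells against 8154 in the rest (2.92, 2.56 to 3.32), and at 18773 against 8507 in the 11 aged cells (2.21, 2.00 to 2.43). Hmox1 stood at 4300 against 1515 (2.84, 2.05 to 3.84) and 4227 against 1941 (2.18, 1.75 to 2.68). In both libraries Ftl1 and Hmox1 thus stood higher in the few cells with a Slc40a1 UMI than in the rest, where both were counted as well.

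In fibroblasts Slc40a1 was the sole 1 of the 8 genes past 1.5-fold, at 0.538 (0.417 to 0.692), where 19.7% of all genes were past that fold (11.6% higher, 8.11% lower). The young Igfbp2 cluster 9 held 55 of the class's 172 young UMIs, at 13.4 CPM, and its 29 aged cells held none. With cells thinned to equal depth, the share of fibroblasts with a Slc40a1 UMI, given above with the neutrophils, was higher in the aged library. That share rested on few cells and its counting intervals overlap between the libraries, so no direction is read from it. The ratio of levels was below 1 in each of 9 other settings, from 0.507 to 0.844. The mean of per-cell levels gave 0.844 for the class, inside 1.5-fold. In all cells outside the 3 large classes it was again the sole 1 past 1.5-fold, at 1.59 (0.939 to 2.69) on 32 and 31 UMIs, so its interval held 1 and a minimum of 100 UMIs left none of the 7 genes tested past it. There 28.3% of all genes were past that fold (16.6% higher, 11.6% lower).

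Ireb2, the iron sensor, was higher in the aged library in each of the 3 large classes under both scalings. It stood at 36.1 CPM young and 49.7 aged in macrophages/monocytes (1.37, 1.22 to 1.55), 31.7 and 38.6 in fibroblasts (1.22, 1.15 to 1.29) and 16.5 and 21.3 in neutrophils (1.29, 1.003 to 1.65). By TMM the ratios were 1.19, 1.15 and 1.12. In neutrophils the interval only just cleared 1 at equal totals, on 181 and 104 UMIs. The lower TMM ratio there is not read as beyond counting error. Of the 14 clusters, 13 had a ratio above 1, and for 8 of them the counting interval lay above 1, at equal totals. The cycling fibroblast cluster 19, led by histone genes and Top2a, was the exception at 0.949 (0.793 to 1.14). Neutrophils were the lowest class in both libraries, apart from the next by more than the counting intervals, while the other 5 classes overlapped with a neighbour.

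**Figure D4:**
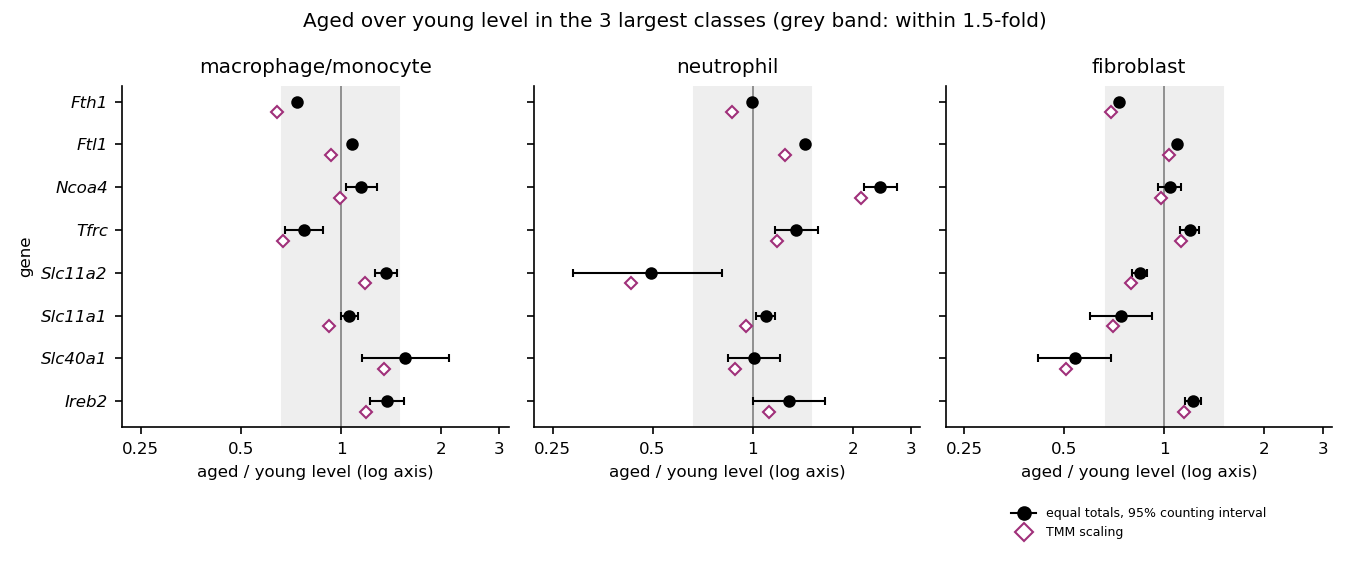
Aged over young level (x axis, log scale) of each gene (y axis) in macrophages/monocytes, neutrophils and fibroblasts, with black points and 95% counting intervals at equal totals, open diamonds for TMM scaling and a grey band within 1.5-fold. Ncoa4 in neutrophils (2.43) lies to the right of the band under both scalings, while Ftl1, Slc11a1 and Ncoa4 in macrophages/monocytes, Slc11a1 and Slc40a1 in neutrophils and Ncoa4 in fibroblasts lie on the other side of 1 by TMM.

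The wider iron list held 56 further genes of uptake, storage, export, sensing, haem handling, mitochondrial iron, iron withholding and ferroptosis. In neutrophils 35 passed the minimum of 20 UMIs, 8 were higher and 7 lower by 1.5-fold or more (all genes: 22.5% higher, 10.7% lower), with a median log2 ratio of 0.08 against 0.12 over all genes. In macrophages/monocytes 42 passed, 5 higher and 4 lower (all genes: 17.0% and 6.16%), with a median of 0.15 against 0.12. In fibroblasts 52 passed, 1 higher and 5 lower (all genes: 11.6% and 8.11%), with a median of 0.05 against 0.03. The list was chosen with earlier results of these libraries known.

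The iron withholding gene Lcn2 (lipocalin, which binds bacterial siderophores) was lower in the aged library in neutrophils and fibroblasts. It stood at 3233 CPM young and 1554 aged in neutrophils (0.481) and 193 and 83.6 in fibroblasts (0.434). In macrophages/monocytes Lcn2 stood at 41.4 and 10.7 (0.259). Neutrophil markers summed to 697 and 478 CPM in that class, and Lcn2 was far higher in neutrophils, so no direction is read there. Hp (haptoglobin, which binds free haemoglobin) stood at 647 and 261 CPM in neutrophils (0.403) and 235 and 64.4 in macrophages/monocytes (0.274). The 8 neutrophil markers were also lower in the aged library, inside the neutrophil class (91291 CPM young, 58124 aged, summed) as well as in the other classes, as given above, and their part in these values was not tested. Steap4, a metalloreductase, stood at 276 and 90.8 CPM in neutrophils (0.329), and Ltf (lactoferrin) went the other way at 16.4 and 29.7 (1.81). Flvcr1, a haem exporter, stood at 11.5 and 22.3 (1.94).

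In macrophages/monocytes Steap3, the endosomal ferrireductase, stood at 9.81 CPM young and 19.0 aged (1.94, 1.57 to 2.41), and Abcg2 at 3.58 and 6.12 (1.71). Hmox1 was the most counted haem gene there, at 1658 and 2056 CPM (1.24), and Cd163, the haemoglobin scavenger receptor, stood at 147 and 89.9 (0.612). In fibroblasts Cp (ceruloplasmin, a ferroxidase that works with the exporter) stood at 313 and 171 CPM (0.546), and Steap3 at 82.7 and 54.8 (0.663). Slc39a14, a metal importer, was the most counted uptake gene of fibroblasts, at 314 and 289 CPM (0.920). Neutrophils were rich in Slc7a11, the cystine importer of ferroptosis control, at 3337 and 4020 CPM (1.205), and in Fbxl5, an iron-sensing ligase subunit, at 887 and 715 (0.806).

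Other genes were closest in pattern over the 7 class-by-library profiles with at least 100 cells (Pearson r of log2(CPM + 1), which share libraries and depth). For Fth1 these were Marcksl1 (0.998), Clec4d (0.996), Arg2, Cd14 and Atp6v1e1. For Ftl1 they were Atp6v1a (0.995), Tlr7, Stx7, Bri3 and Clcn7, and for Slc11a1 they included Mctp1 (0.998), Fcgr3, Cd300a and Igsf6. Slc40a1 was closest to Ets2 (0.996), Ndel1, Snap23, Tlr4 and Tmem202, and Slc11a2 to Rabep1 (0.997), Sfmbt1, Olfm1, Entpd7 and Prdx1. Ireb2 was closest to Adck1 (0.999), Nipsnap2, Phc2, Uba1 and Tbcel. Ncoa4 was closest to Trdmt1 (0.990), Slc15a2, Eea1, Ceacam16 and Map2k4, and Tfrc to Bnip3l (0.990), Tmed5, Rnf113a2, Mir155hg and Pkd2l2. Among the 8 genes, Fth1 and Slc11a1 were the most alike (0.982), and Slc40a1 and Ireb2 the least (-0.77). With 7 profiles, 21 genes for Tfrc and up to 414 for Ireb2 reached 0.95, so these lists are a description.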

How the data were processed

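Values were the UMI counts per gene and barcode that the authors deposited, with Cell Ranger 8.0.1 named in the file headers. GRCm38/mm10, Seurat 4, STAR and Cell Ranger 9.0 are listed by the submitters' processing notes. The annotation release is not given in the sources used here, and 1684 of the 33696 feature identifiers were absent from GENCODE M21, so positions printed for stem-loops are those of GENCODE M21 on GRCm38 only.

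The young library held 4932 barcodes and 111810068 UMIs, the aged library 4379 barcodes and 107865898 UMIs, and 3 barcodes occurred in both. Cells with at least 500 UMIs, at least 200 genes and under 15% mitochondrial UMIs were kept. Scrublet called 3 young and 2 aged doublets (0.0644% and 0.0475%), too few to be taken as working, so doublets are assumed to remain. A cell took the highest of 16 marker scores if it reached 0.2 and led by 0.1. Each score averaged log UMIs per 10000, each marker divided by its 99th percentile and capped at 1. Cells within 0.05 of the gate numbered 112 young and 127 aged macrophages/monocytes, 45 and 61 neutrophils, and 14 and 15 fibroblasts. Leiden clustering used 2000 variable genes without the iron genes, 30 components and resolution 1. Cluster 21 is not described, since mast cell and B cell genes led it.

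UMIs were summed per class and scaled to CPM. Intervals were exact Poisson (levels), Clopper-Pearson (shares) and conditional binomial (ratios), and a limit for 0 uses 3 counts. For list medians 5 CPM was added. Thinning to 2000 UMIs left out 17 young and 48 aged macrophages/monocytes, 87 and 84 neutrophils, and 34 and 28 fibroblasts. The level that other classes' markers would bring, a calculation added after values were seen, multiplied the ratio of a marker list's summed CPM between classes by the gene's level in the marker's own class. It is too high where a class makes the markers itself, and it divides by marker levels that differ between the libraries. Genes of the wider list named per class were the 2 highest and 2 lowest ratios with at least 50 UMIs and the most counted per role; others were named after their values were seen. Some genes that the rules would name are not reported here. Members and lists were chosen with earlier results of these data known. Ratios and intervals were tested on simulated data. Tools were scanpy 1.11.5, scipy 1.17.1 and edgeR 4.0.16 (for TMM factors only).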

Additional observations from a re-analysis of the deposited data

Results flagged for a closer look

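Some genes stood on opposite sides of 1 in a pair of classes, with counting intervals clear of 1 on both sides. With 1 library per age the difference between classes was not tested. Tfrc had an aged/young ratio of 1.36 in neutrophils and 1.19 in fibroblasts against 0.772 in macrophages/monocytes. A few cells carried much of that macrophage value, as given above. On the C1q side of that class the ratio was 0.891 (0.772 to 1.03), an interval that held 1. On the monocyte side it was 0.389 (0.214 to 0.675), on 53 and 18 UMIs. Slc40a1 had 1.56 in macrophages/monocytes against 0.538 in fibroblasts, where the share of thinned cells with a UMI rested on few cells and gave no direction. Slc11a1 had 1.10 in neutrophils (0.955 by TMM) against 0.742 in fibroblasts, where its level is read as background. Slc11a2 had 1.36 in macrophages/monocytes against 0.844 in fibroblasts and 0.493 in neutrophils, where the aged level is no higher than background.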

How the results depend on the processing

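No paired analysis was possible because each age has 1 library, and leaving out a library was not possible either. Of 32 ratios (8 genes in 3 classes and over all cells), the direction held for 26 under TMM, 28 with per-cell means, 30 without the top doublet scores or the 10 top cells, 31 with the doubled gate margin or classes from clusters, and all 32 with no filter, with the stricter filter and with totals without the 8 genes. Beyond their counting intervals, Fth1 over all cells moved to 0.603 (TMM), 0.649 (totals without the 8 genes), 0.840 (per-cell means), 0.650 (without the 10 top cells) and 0.659 (without top doublet scores). Ncoa4 in neutrophils moved to 2.12 (TMM) and 2.09 (per-cell means), and Slc40a1 in fibroblasts to 0.844 (per-cell means). Without the 10 top cells Slc40a1 in macrophages/monocytes moved to 5.29 and Slc11a2 in neutrophils to 0.244. The count of genes lower over all cells went from 1 to 2 under TMM, without the 10 top cells and without top doublet scores, and to 0 with per-cell means. In macrophages/monocytes the count higher went from 1 to 0 under TMM, with classes from clusters and without top doublet scores, and the count lower from 0 to 1 under TMM and with classes from clusters. TMM moved the wider list's median log2 ratio from 0.15 to -0.031 in macrophages/monocytes and from 0.08 to -0.033 in neutrophils. A minimum of 100 UMIs moved the share of genes past the fold in fibroblasts from 19.7% to 12.8%. Other causes of these moves were not tested. Shares of cells with a UMI depend on the thinning depth by construction. Low counts limit the rarest genes: Slc40a1 in macrophages/monocytes rests on 70 and 132 UMIs, and T/NK, dendritic and endothelial cells were few.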
